A study of Macaca fascicularis with 2 samples.

Results

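10 genes of the WNT and R-spondin pathway were followed across the cells of the fetal ovary of Macaca fascicularis, the long-tailed macaque: the ligands RSPO1, RSPO3, WNT4, WNT6 and WNT2B, the R-spondin receptor LGR5, the receptor ligases RNF43 and ZNRF3, the secreted inhibitor SOST and the feedback gene AXIN2. They were taken from the table by name. Of the 10 genes, 9 have a row among the 18446 genes of the count table, and RNF43 was not analysed here.

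WNT proteins bind Frizzled and LRP receptors on the receiving cell, which spares beta-catenin from a destruction complex built on AXIN proteins and lets it switch on target genes with TCF and LEF factors. ZNRF3 and RNF43 are ubiquitin ligases that remove Frizzled receptors from the surface, and R-spondins, bound to LGR receptors, take those ligases away and so strengthen the WNT signal. In mammals RSPO1 and WNT4 belong to the pathway by which the fetal gonad becomes an ovary, and AXIN2 is widely used as a readout of beta-catenin signalling.

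The tissue came from 2 untreated female fetuses, 1 at embryonic day 84 (E84) and 1 at embryonic day 116 (E116), and both ovaries of a fetus were digested with enzymes and made into 1 droplet library. RNA molecules were counted by unique molecular identifiers (UMIs), and the table holds 20967 cells with 148824177 UMIs and a median of 3756 UMIs per cell. Barcodes end in 1 (10621 cells, median 3130 UMIs) or in 2 (10346 cells, median 4555.5 UMIs), the table does not tie an ending to a stage, and 27 barcodes occur with both endings. The cells therefore form 1 pool, nothing is given by stage, and values within each ending stand beside the pooled ones as values of 2 unlabelled batches.

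Levels are summed UMIs of a group of cells, scaled to a total of 1000000 UMIs in that group (CPM), with exact 95% Poisson intervals. Ratios between classes have exact 95% intervals for the ratio of counts. With 1 library per stage there is no replicate, so these intervals cover counting error only, and no p-value is given. Higher and lower below refer to values whose intervals do not overlap. CPM is a share of the RNA counted in a class, so a high level of other transcripts lowers it.

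Cells were grouped without the pathway genes into 20 clusters, and clusters were named from marker genes. Granulosa-like cells (5364 cells in 4 clusters) held KITLG at 293 CPM and AMHR2 at 158 CPM, whereas FOXL2, the granulosa transcription factor, was at only 4.53 CPM. Surface epithelium-like cells (1245 cells, 1 cluster) held UPK3B at 445 CPM and MSLN at 712 CPM, and they also held the granulosa marker AMHR2 at 132 CPM. This cluster met the naming limits for 6 surface epithelium markers and for 5 granulosa markers, so its name is narrow by count. Its surface epithelium markers summed to 2337 CPM, against 66.7 to 236 CPM in the 4 granulosa-like clusters. Its granulosa markers summed to 818 CPM, against 960 to 1669 CPM in those clusters. Stroma-like cells (4580 cells, 3 clusters) held PDGFRA at 73.7 CPM and TCF21 at 476 CPM, and germ cell-like cells (6284 cells, 6 clusters) held DAZL at 206 CPM and DDX4 at 292 CPM. The 4 classes had median UMI counts of 2868.5, 6776, 3738 and 2262.5 per cell in that order. Erythroid-like cells (746 cells, median 4072 UMIs) served as the class that should lack these transcripts, and their values were read as the level of free RNA. Hemoglobin fills much of their RNA, with HBB at 466600 CPM, so that level is a low estimate for other cells.

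Some groups of cells stand apart. Clusters 8 and 10, with 1818 cells of which 1817 have barcodes ending in 2, were left unnamed. Cluster 8 held 7 of 12 granulosa markers but had genes of other lists, such as RGS5, among its leading genes, and cluster 10 held 3 granulosa and 3 pericyte markers. Among germ cell-like cells, 2593 fell into 3 sub-clusters without a stage name, and 1 of these, with 498 cells and a median of 19928 UMIs, held 8 granulosa markers above other germ cells. Its summed level of the 12 granulosa markers was 716 CPM, against 78.2 to 268 CPM in the other 11 germ cell sub-clusters. The largest of the 3, with 1348 cells and a median of 758 UMIs, held 7 stroma markers above other germ cells. Its stroma markers summed to 2569 CPM, against 206.5 to 1506 CPM in the other 11 sub-clusters. Germ cell values are therefore given with and without the cells that have no stage name. What part mixed droplets or free RNA play in these cells was not tested.

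A gene was assigned to a class when its CPM there was at least 2 times that in each of the other 3 classes and it had at least 20 UMIs over the 4 classes, a rule of size with no test. By that rule 7 of the 9 genes were assigned to a class, where 30.0% of all 16050 genes tested were. WNT6 and SOST were assigned to granulosa-like cells (2.65% of all genes), RSPO1, WNT2B and AXIN2 to surface epithelium-like cells (3.22%), RSPO3 and WNT4 to stroma-like cells (4.77%), and none of the 9 to germ cell-like cells (19.4%). With germ cells of named stages only, the same classes were assigned to these 7 genes, where 31.6% of all genes were assigned to any class, 2.65% to granulosa-like, 3.14% to surface epithelium-like, 4.72% to stroma-like and 21.1% to germ cell-like cells. The median log2 ratio of the highest over the next class was 2.44 over the 9 genes and 0.51 over all genes tested. The 9 genes were chosen with earlier results of these data known, so their share and ratio beside all genes are a description. The R-spondins, the WNT ligands, the inhibitor and the feedback gene were thus divided over 3 somatic classes, while the ligase ZNRF3 and the receptor LGR5 met the rule in no class.

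**Figure D1:**
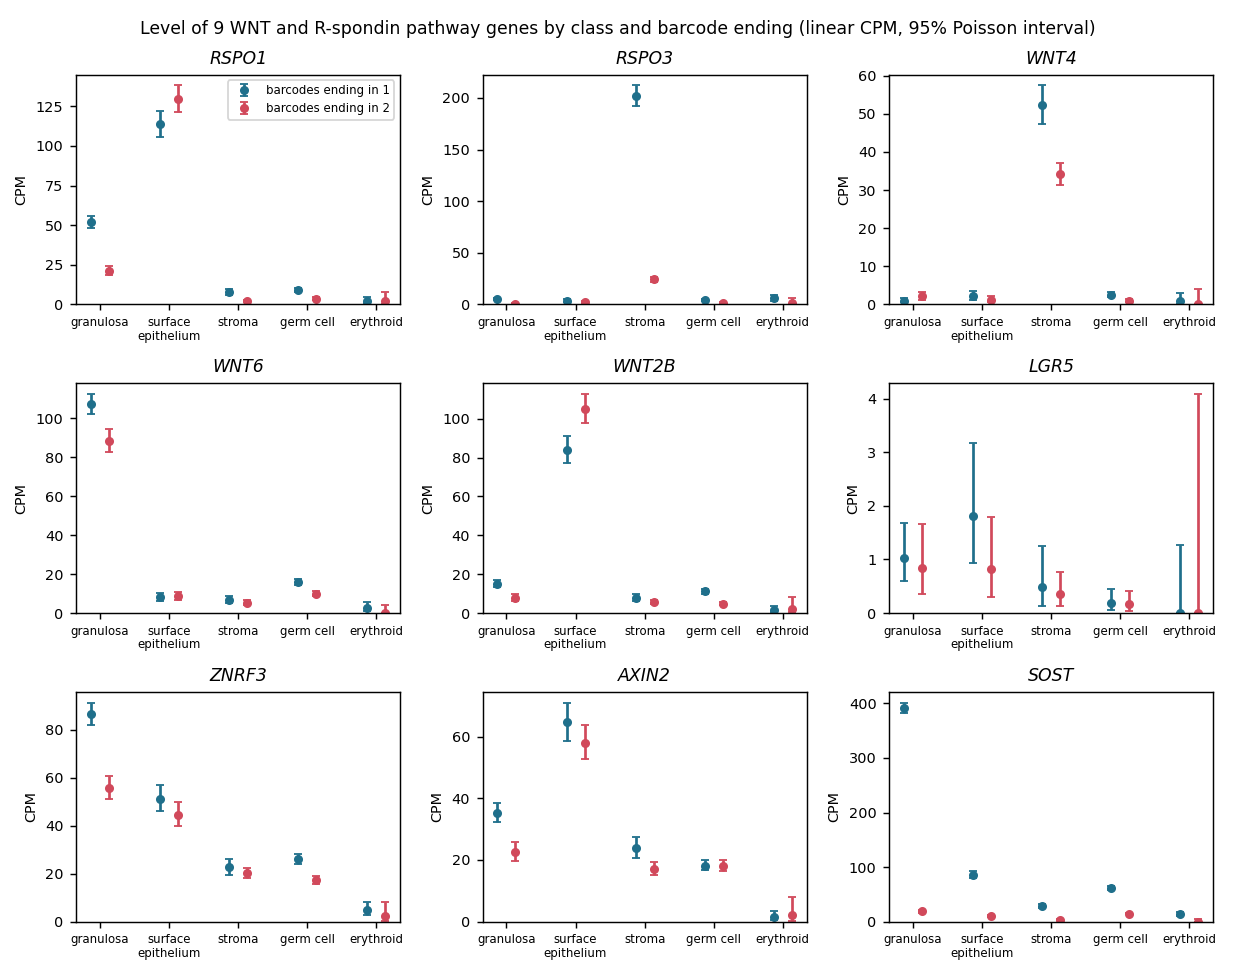
Level in CPM (linear axis, from 0) of each of the 9 genes in granulosa-like, surface epithelium-like, stroma-like, germ cell-like and erythroid-like cells, for barcodes ending in 1 (blue) and in 2 (red), with bars for exact 95% Poisson intervals. The class with the highest level is the same in both endings for 8 genes, LGR5 being the exception, while SOST in granulosa-like cells stands at 392 CPM in ending 1 and 18.6 CPM in ending 2, and RSPO3 in stroma-like cells at 202 and 24.5 CPM.

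RSPO1, the R-spondin of ovary determination, was highest in surface epithelium-like cells, at 122 CPM (95% interval 116 to 128). Granulosa-like cells followed at 40.3 CPM, a ratio of 3.03 (2.80 to 3.28), then germ cell-like cells at 6.46 CPM and stroma-like cells at 4.01 CPM. No pair of neighbours in that order had overlapping intervals when germ cells without a stage name were counted. In the surface epithelium RSPO1 was at 113.9 CPM in ending 1 and 129.5 CPM in ending 2. In granulosa-like cells it was at 52.0 and 21.2 CPM, so the gap between both classes was wider in ending 2 (log2 ratio 2.61) than in ending 1 (log2 ratio 1.13). Of the surface epithelium-like cells 54.9% had at least 1 RSPO1 UMI, against 12.7% of granulosa-like and 1.07% of erythroid-like cells. After thinning every cell to 1000 UMIs, which leaves out 45 surface epithelium-like and 885 granulosa-like cells, the shares were 13.2% and 3.17%. Erythroid-like cells held RSPO1 at 2.37 CPM (1.09 to 4.51), an interval that overlaps that of stroma-like cells, so the stromal level is read as background. Germ cells of named stages alone held RSPO1 at 1.42 CPM, inside that erythroid-like interval, so their level is read as background too.

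Within granulosa-like cells RSPO1 was uneven. Cluster 1 (2173 cells, led by HS3ST3A1, EGR4 and CRYM) held it at 50.1 CPM, cluster 14 (534 cells, led by PCP4, INHA and CRHBP) at 41.5 CPM and the shallow cluster 9 (872 cells, median 704 UMIs) at 34.5 CPM. Cluster 4 (1785 cells, led by PLXNC1, INHBB and CYP19A1) held RSPO1 at 6.20 CPM (4.05 to 9.08), lower than the other 3. Mitochondrial transcripts made up a median of 48.5% of UMIs in cluster 4, against 10.5% in cluster 1, and their part in its low RSPO1 was not tested. Cluster 4 gave 1776 of the 2286 granulosa-like cells of ending 2, and cluster 1 gave 2135 of the 3078 of ending 1. Values of the granulosa-like class by ending, above and below, therefore compare different clusters for every gene. Cluster 14 is the granulosa cluster with at least 100 cells of each ending, and there RSPO1 was at 150.5 CPM (114 to 194.5) in the 100 cells of ending 1 and at 33.2 CPM (28.4 to 38.6) in the 434 cells of ending 2.

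RSPO3, a second R-spondin, had another place. Stroma-like cells held it at 82.5 CPM (79.0 to 86.1), which was 24.5 times (19.7 to 30.9) the level in granulosa-like cells. Its levels in granulosa-like (3.36 CPM), germ cell-like (3.16 CPM) and surface epithelium-like cells (2.66 CPM) had overlapping intervals, and erythroid-like cells held RSPO3 at 4.75 CPM, so these 3 values are not above background. In stroma-like cells RSPO3 was at 202 CPM in ending 1 and 24.5 CPM in ending 2. The next class was granulosa-like in ending 1, at 5.05 CPM and a ratio of 40.04 (31.9 to 50.9), and surface epithelium-like in ending 2, at 1.92 CPM and a ratio of 12.8 (7.52 to 23.6). RSPO1 and RSPO3 thus had their highest levels in different classes in both endings.

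Among stromal clusters RSPO3 was concentrated in cluster 3 (1899 cells, led by POSTN, LUM and OGN), at 206 CPM, where 27.3% of cells had at least 1 UMI. Cluster 0 (2487 cells, led by C7 and SPON2) held it at 24.9 CPM and cluster 18 (194 cells, led by INSL3 and genes of the cell cycle such as RRM2 and UBE2C) at 34.5 CPM. These clusters are split by ending: 1850 of the cells of cluster 3 have barcodes ending in 1, and 2478 of those of cluster 0 have barcodes ending in 2. The 49 cells of cluster 3 with ending 2 held RSPO3 at 175 CPM (111 to 263), close to the 206 CPM of its cells with ending 1. Cluster 18 holds 77 and 117 cells of the 2 endings, and RSPO3 was at 136.7 CPM (103.5 to 177) in the first and 8.53 CPM (4.67 to 14.3) in the second.

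**Figure D2:**
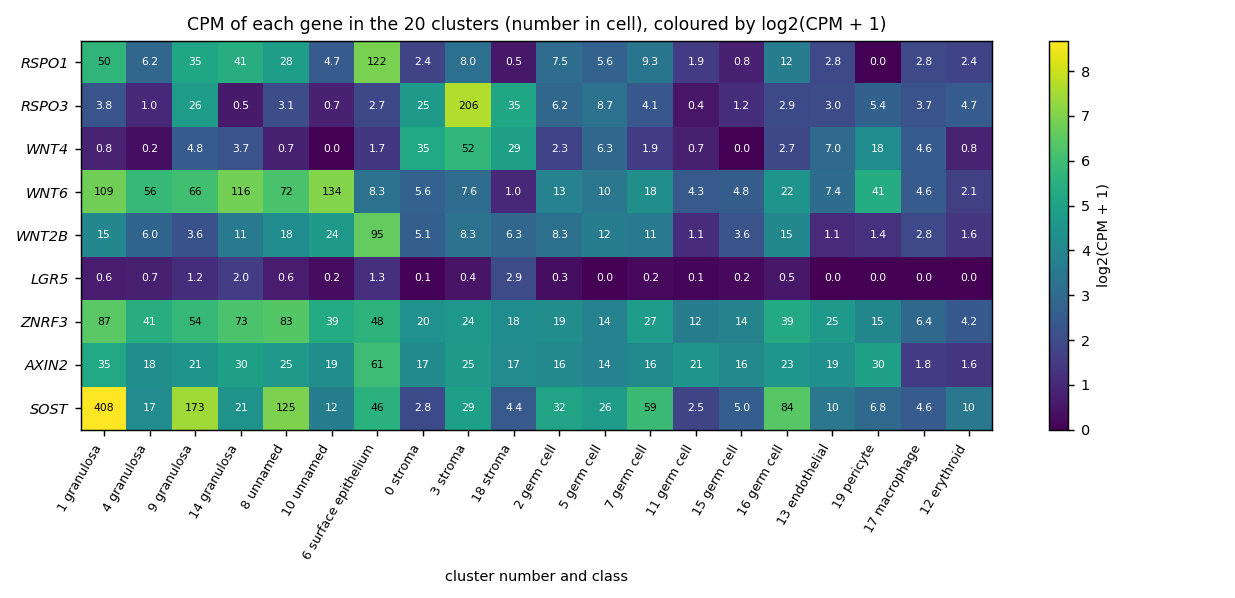
CPM of the 9 genes (rows) in the 20 clusters (columns, with cluster number and class), printed in each cell and coloured by log2(CPM + 1). SOST stands at 408 CPM in granulosa cluster 1 and 17.4 CPM in granulosa cluster 4, RSPO3 at 206 CPM in stroma cluster 3 and 24.9 CPM in stroma cluster 0, and WNT6 between 55.5 and 134 CPM in the 4 granulosa clusters and the 2 unnamed clusters.

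WNT4, a ligand needed for the female pathway in the gonad, was above background in stroma-like cells and not in granulosa-like cells. It was at 40.01 CPM (37.6 to 42.6) in the stroma, against 1.78 CPM in germ cell-like, 1.65 CPM in surface epithelium-like and 1.44 CPM in granulosa-like cells. The ratio of stroma-like to germ cell-like cells was 22.5 (18.1 to 28.2). Those 3 lower values have overlapping intervals, which also overlap that of erythroid-like cells (0.791 CPM, 0.163 to 2.31), so WNT4 in them was not distinguishable from background at this depth. In granulosa-like cells only 36 WNT4 UMIs were counted among 24965931. Stroma-like cells held WNT4 at 52.2 CPM in ending 1 and 34.1 CPM in ending 2, a smaller gap than for RSPO3. All 3 stromal clusters carried WNT4, at 52.4 CPM in cluster 3, 35.1 CPM in cluster 0 and 29.2 CPM in cluster 18. In cluster 18 it was at 59.9 CPM (38.8 to 88.5) in ending 1 and 21.3 CPM (14.9 to 29.7) in ending 2. The share of stroma-like cells with a WNT4 UMI was 17.2%, and 4.17% at 1000 UMIs per cell. No erythroid-like cell of 653 had one at that depth.

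WNT6 was the WNT ligand of granulosa-like cells. They held it at 100.1 CPM (96.3 to 104), which was 7.70 times (7.06 to 8.40) the 13.0 CPM of germ cell-like cells. Surface epithelium-like cells followed at 8.34 CPM (6.89 to 10.0) and stroma-like cells at 5.84 CPM (4.93 to 6.86), both above the 2.11 CPM (0.911 to 4.16) of erythroid-like cells. Germ cells of named stages alone held WNT6 at 3.17 CPM, inside that erythroid-like interval. In granulosa-like cells WNT6 was at 107 CPM in ending 1 and 88.6 CPM in ending 2, a ratio far below that of SOST. Its level was 116 CPM in cluster 14, 109 CPM in cluster 1, 65.5 CPM in cluster 9 and 55.5 CPM in cluster 4. Cluster 14 held WNT6 at 119 CPM in ending 1 and 116 CPM in ending 2, whereas RSPO1 and SOST differed between endings in the same cells. The unnamed clusters 8 and 10 held WNT6 at 71.8 and 134 CPM. In granulosa-like cells 27.3% had at least 1 WNT6 UMI, against 1.07% of erythroid-like cells.

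WNT2B marked the surface epithelium. Surface epithelium-like cells held it at 95.0 CPM (89.9 to 100.3), at 83.9 CPM in ending 1 and 105.0 CPM in ending 2. Granulosa-like cells held WNT2B at 12.3 CPM, so the ratio was 7.70 (6.80 to 8.75), and in them it was higher in ending 1 (15.1 CPM) than in ending 2 (7.78 CPM). Germ cell-like cells (8.11 CPM, 7.34 to 8.93) and stroma-like cells (6.24 CPM, 5.30 to 7.29) came next, and both lay above erythroid-like cells (1.58 CPM, 0.581 to 3.44). Germ cells of named stages alone held WNT2B at 5.95 CPM. At least 1 WNT2B UMI was found in 48.3% of surface epithelium-like and 5.11% of granulosa-like cells, and in 8.83% and 1.32% at 1000 UMIs per cell. RSPO1 and WNT2B were thus both highest in the surface epithelium, in both endings.

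LGR5, a receptor for R-spondins, was near the limit of detection. Its 71 UMIs in all cells came from 64 cells, or 0.305% of 20967. Surface epithelium-like cells held LGR5 at 1.29 CPM (0.767 to 2.05), granulosa-like cells at 0.961 CPM (0.616 to 1.43), stroma-like cells at 0.397 CPM (0.191 to 0.731) and germ cell-like cells at 0.178 CPM (0.0814 to 0.338). The first pair differed by a ratio of 1.35 (0.689 to 2.59), which includes no difference, and in ending 2 granulosa-like cells (0.841 CPM, 8 UMIs) and surface epithelium-like cells (0.822 CPM, 6 UMIs) were about equal. No UMI was counted among 3792228 of erythroid-like cells, where 3 counts would be 0.791 CPM. The interval of the surface epithelium lies just above that of the stroma, and the intervals of granulosa-like and stroma-like cells overlap, so most differences in LGR5 between somatic classes were not detectable at this depth. LGR4, its paralog and also an R-spondin receptor, was at 87.4 CPM in granulosa-like, 47.2 CPM in surface epithelium-like, 31.0 CPM in stroma-like and 19.6 CPM in germ cell-like cells. The ratio of LGR4 in granulosa-like to surface epithelium-like cells was 1.85 (1.70 to 2.03), short of the rule of 2 times. LGR6, the third of these receptors, had 51 UMIs over the 4 classes and was highest in stroma-like cells at 0.795 CPM.

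ZNRF3, the ligase that R-spondins inhibit, was graded over the classes. Granulosa-like cells held it at 74.9 CPM (71.6 to 78.4) and surface epithelium-like cells at 47.8 CPM (44.3 to 51.6), a ratio of 1.57 (1.43 to 1.72). Germ cell-like cells (21.7 CPM, 20.4 to 23.0) and stroma-like cells (21.1 CPM, 19.3 to 23.0) did not differ beyond counting error. Germ cells of named stages alone held ZNRF3 at 13.6 CPM. The values of all 4 classes were above erythroid-like cells at 4.22 CPM (2.41 to 6.85). In granulosa-like cells ZNRF3 was at 86.7 CPM in ending 1 and 55.9 CPM in ending 2, and in surface epithelium-like cells at 51.3 and 44.6 CPM. Its level in granulosa clusters was 86.7 CPM in cluster 1, 73.2 CPM in cluster 14, 53.6 CPM in cluster 9 and 41.0 CPM in cluster 4, and the unnamed cluster 8 held ZNRF3 at 83.3 CPM.

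SOST, which encodes sclerostin, a secreted protein that binds LRP receptors and blocks WNT signals, differed more between endings in its highest class than any other of the 9 genes. Granulosa-like cells held it at 249.5 CPM (243 to 256), surface epithelium-like cells at 46.0 CPM (42.5 to 49.7), germ cell-like cells at 38.6 CPM (36.9 to 40.4) and stroma-like cells at 11.1 CPM (9.82 to 12.5). The ratio of the first pair was 5.42 (4.997 to 5.89). In ending 1 the same classes held SOST at 392, 86.2, 61.5 and 27.9 CPM. In ending 2 they held it at 18.6 (16.0 to 21.6), 9.72, 14.7 (13.2 to 16.3) and 2.95 CPM. Granulosa-like cells stayed highest in ending 2, but at only 1.27 times (1.05 to 1.52) the level of germ cell-like cells, the next class there, so the rule of 2 times was no longer met. That germ cell value came mostly from cells without a stage name, which held SOST at 63.4 CPM (333 UMIs) in ending 2. Every named germ cell stage held 1.66 CPM or less there. Erythroid-like cells held SOST at 13.2 CPM (38 UMIs) in ending 1 and had no UMI in ending 2, where 3 counts would be 3.33 CPM. The pooled stromal 11.1 CPM overlaps the pooled 10.0 CPM (7.09 to 13.8) of erythroid-like cells. In ending 1, however, stroma-like cells held 27.9 CPM against 13.2 CPM, so the pooled overlap alone does not make the stromal level background.

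The high SOST level belonged mostly to 1 granulosa cluster. Cluster 1 held SOST at 408 CPM with at least 1 UMI in 77.9% of its cells, and cluster 9 held it at 173 CPM. Cluster 14 held it at 20.6 CPM and cluster 4 at 17.4 CPM, while the unnamed cluster 8 held it at 125 CPM with 54.7% of cells. Of all 8921 genes ranked by fold over all other cells, SOST stood first in cluster 1 although it was not used for grouping cells, with a ratio of 8.68 after 10 CPM was added to both values. Cluster 1 has 2135 cells of ending 1 and 38 of ending 2. Those 38 cells held SOST at 186.5 CPM (131 to 257), below the 411 CPM of the cells of ending 1 and above every other granulosa cluster of ending 2 with at least 100 cells. Cluster 14 held SOST at 122 CPM (89.6 to 162) in ending 1 and at 13.0 CPM (10.0 to 16.5) in ending 2. Since SOST in cluster 8 (1012 of 1013 cells with ending 2) was at 125 CPM, the low granulosa value of ending 2 also depends on that cluster being left out of the class.

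AXIN2, the feedback gene, was detected in each of the 4 classes. Surface epithelium-like cells held it at 61.2 CPM (57.1 to 65.5), with 64.7 CPM in ending 1 and 58.1 CPM in ending 2. Granulosa-like cells held AXIN2 at 30.4 CPM (28.3 to 32.7), a ratio of 2.01 (1.82 to 2.22) that lies on the threshold of 2. Stroma-like cells (19.4 CPM, 17.7 to 21.2) and germ cell-like cells (18.1 CPM, 17.0 to 19.3) did not differ beyond counting error. Erythroid-like cells held AXIN2 at 1.58 CPM (0.581 to 3.44), below every one of these classes. AXIN2 was thus highest in the class with the highest RSPO1 and WNT2B, and higher in granulosa-like cells of ending 1 (35.3 CPM) than in those of ending 2 (22.5 CPM). Those granulosa-like cells are mostly of cluster 1 in ending 1 and mostly of cluster 4 in ending 2. Among granulosa clusters AXIN2 ran from 18.4 CPM in cluster 4 to 34.8 CPM in cluster 1. The assignment of AXIN2 to the surface epithelium by the rule of 2 times was kept in 6 of 11 alternative settings, and the surface epithelium was the highest class in 11 of 11.

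In germ cells the pooled values joined cells with and without a stage name, which differed in several of these genes. The germ cell-like cells with a stage name comprised 251 mitotic, 1479 retinoic acid (RA)-responsive, 1302 meiotic and 659 oogenesis cells. In these together SOST was at 5.16 CPM, RSPO1 at 1.42 CPM, WNT6 at 3.17 CPM and WNT4 at 1.69 CPM, against 38.6, 6.46, 13.0 and 1.78 CPM in the whole class. The 498 cells described above held SOST at 147.6 CPM, WNT6 at 44.8 CPM, RSPO1 at 22.6 CPM and ZNRF3 at 48.8 CPM. These cells, which also carry granulosa markers, gave 1695 of the 1952 SOST, 514 of the 658 WNT6 and 259 of the 327 RSPO1 UMIs of the germ cell class. AXIN2 and ZNRF3 were at 16.4 and 13.6 CPM in cells of named stages, above the erythroid-like values of 1.58 and 4.22 CPM.

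**Figure D3:**
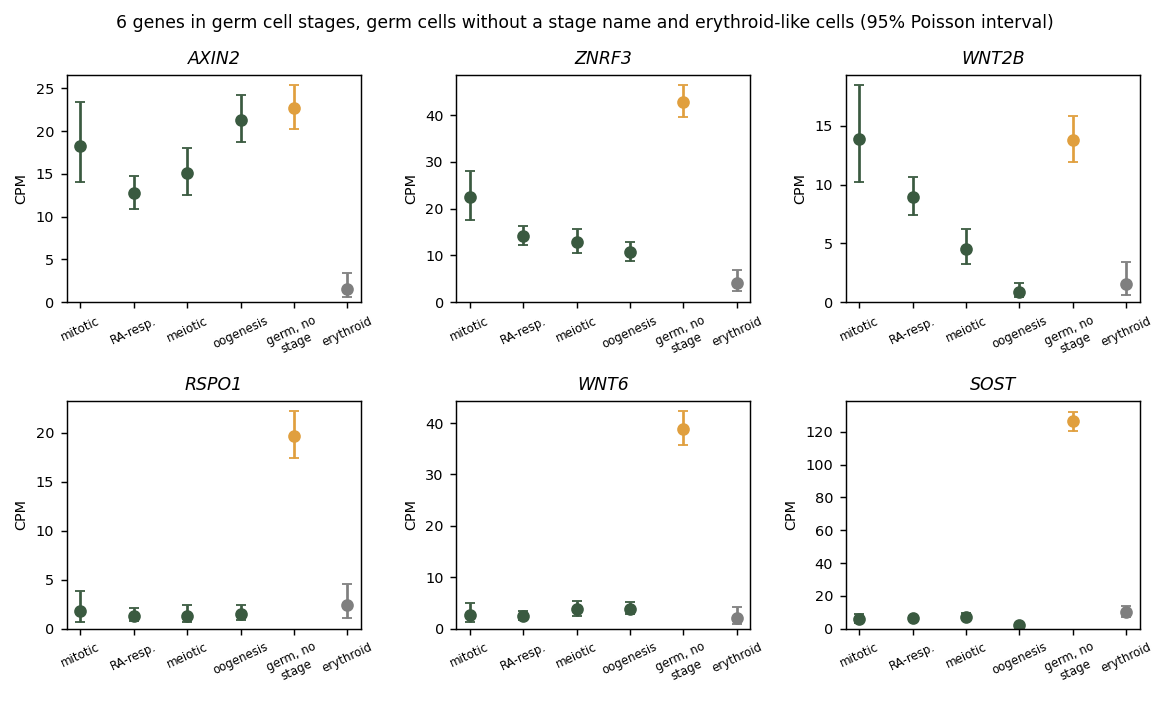
CPM (linear axes, from 0) of AXIN2, ZNRF3, WNT2B, RSPO1, WNT6 and SOST in 4 named germ cell stages (green), germ cells without a stage name (orange) and erythroid-like cells (grey), with exact 95% Poisson intervals. WNT2B goes from 13.9 CPM in mitotic to 0.903 CPM in oogenesis cells, AXIN2 lies between 12.7 and 21.3 CPM in the named stages, and SOST stands at 126 CPM in cells without a stage name.

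WNT2B was highest in mitotic germ cells at 13.9 CPM (10.2 to 18.4), followed by RA-responsive cells at 8.90 CPM (7.40 to 10.6), meiotic cells at 4.56 CPM (3.22 to 6.25) and oogenesis cells at 0.903 CPM (0.433 to 1.66). Only the first pair of neighbours in that order had overlapping intervals, and the value in oogenesis cells was not above the 1.58 CPM of erythroid-like cells. ZNRF3 was at 22.4 CPM (17.7 to 28.1) in mitotic cells, 14.2 CPM in RA-responsive, 12.9 CPM in meiotic and 10.7 CPM in oogenesis cells. AXIN2 had another order, with 21.3 CPM (18.7 to 24.2) in oogenesis, 18.3 CPM (14.0 to 23.4) in mitotic, 15.1 CPM (12.6 to 17.99) in meiotic and 12.7 CPM (10.9 to 14.8) in RA-responsive cells. The pooled level of AXIN2 in oogenesis cells was higher than in meiotic and RA-responsive cells and overlapped that of mitotic cells.

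Germ cell stages are unevenly split over the endings, with 248 of 251 mitotic cells in ending 1 and 639 of 659 oogenesis cells in ending 2, so mitotic and oogenesis cells cannot be compared apart from the ending. RA-responsive and meiotic cells occur in both. In ending 1 WNT2B was at 13.8 CPM (10.1 to 18.4) in mitotic, 10.1 CPM (8.10 to 12.4) in RA-responsive and 4.95 CPM (3.14 to 7.43) in meiotic cells. In ending 2 it was at 6.76 CPM (4.65 to 9.49) in RA-responsive, 4.06 CPM (2.27 to 6.70) in meiotic and 0.921 CPM (0.442 to 1.69) in oogenesis cells. The values of WNT2B kept the pooled order within each ending. Intervals of mitotic and RA-responsive cells overlapped in ending 1, and those of RA-responsive and meiotic cells in ending 2. The step from RA-responsive to meiotic cells, which both endings share, was thus beyond counting error in ending 1 only. For AXIN2, oogenesis cells of ending 2 (21.4 CPM, 18.7 to 24.3) were higher than RA-responsive cells (12.3 CPM, 9.37 to 15.8), but their interval overlapped that of meiotic cells (18.1 CPM, 14.1 to 23.03), so the pooled difference from meiotic cells was not found within the ending. For ZNRF3, mitotic cells of ending 1 (22.5 CPM, 17.7 to 28.2) were higher than RA-responsive cells (13.3 CPM, 11.03 to 15.9) and overlapped meiotic cells (15.7 CPM, 12.3 to 19.7).

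The wider pathway list holds 80 further genes, of which 74 have a row and 67 reached 20 UMIs over the 4 classes. Of these 67, 21 were assigned to a class (31.3%, against 30.0% of all genes), 1 to granulosa-like, 11 to surface epithelium-like, 3 to stroma-like and 6 to germ cell-like cells. Their median log2 ratio of the highest over the next class was 0.59. Counting the genes followed here with the rest, ligands were assigned to a class in 13 of 18 cases and secreted or surface inhibitors in 10 of 16, receptors in 0 of 14. With germ cells of named stages only, WNT7B and NOTUM were no longer assigned, and the receptor FZD3 was assigned to germ cells (26.6 CPM, against 12.0 CPM in granulosa-like cells).

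**Figure D4:**
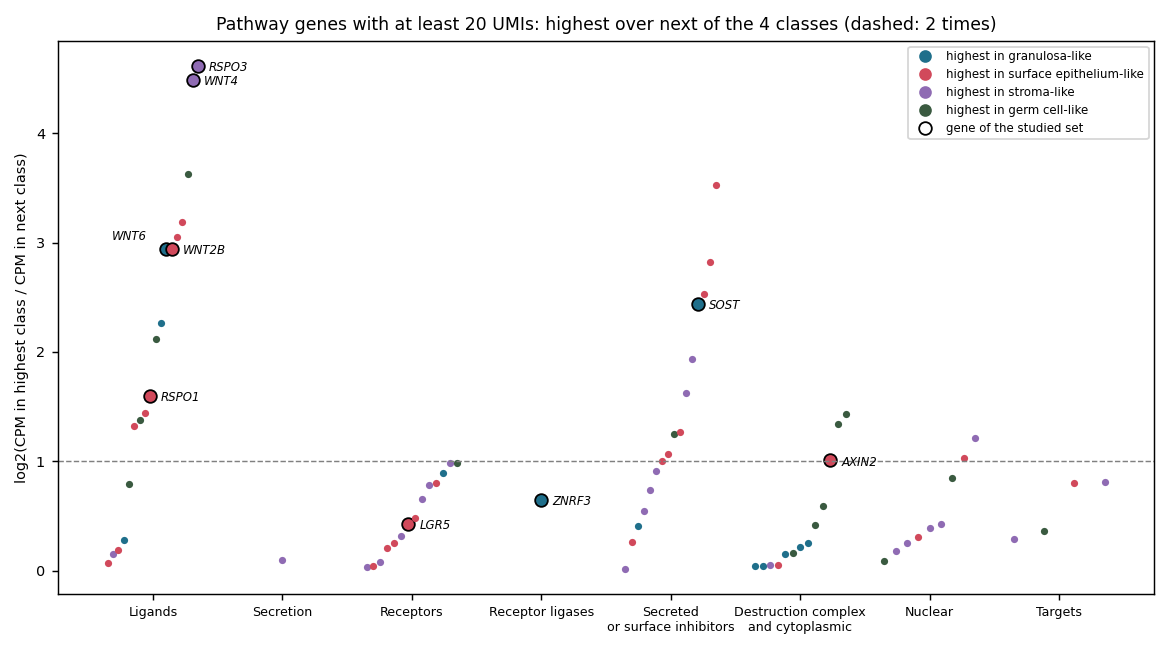
Log2 ratio of CPM in the highest over the next of the 4 classes (y axis) for the pathway genes with at least 20 UMIs, grouped by role (x axis) and coloured by the highest class, with the 9 genes of the set outlined and named and the dashed line at 2 times. RSPO3 and WNT4 have the largest ratios of the ligands, at 4.62 and 4.49, and all 14 receptors lie below the line, with all germ cell-like cells counted.

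Of the other ligands that were assigned to a class, WNT2, WNT5A, WNT7B and WNT10A were assigned to the surface epithelium. WNT10A was at 26.5 CPM there, 8.28 times (6.49 to 10.7) the granulosa level, and WNT2 was at 17.3 CPM, 9.13 times (7.18 to 11.7) the germ cell level. WNT7B (7.55 CPM) and WNT5A (2.16 CPM) were assigned to it too, at 2.50 and 2.71 times the next class. The secreted inhibitors SFRP1 and WIF1 and the transcription factor LEF1 were the other genes of the list with the highest levels among those assigned there. SFRP1 was at 1240.0 CPM against 618 CPM in stroma-like cells, but in ending 1 the stroma (1202 CPM) was higher than the surface epithelium (1065 CPM). WIF1 was at 247.5 CPM, 11.5 times (10.5 to 12.6) the granulosa level, and LEF1 at 173.6 CPM against 85.3 CPM in granulosa-like cells. In ending 1 LEF1 was only 1.305 times (1.21 to 1.41) the granulosa level, short of the rule of 2 times. In ending 2 it was 7.38 times (6.70 to 8.13) the germ cell level, the next class there. SOSTDC1, a paralog of SOST, was at 16.7 CPM in the surface epithelium and 7.97 CPM in granulosa-like cells, the reverse of SOST's order.

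In granulosa-like cells NDP, which encodes norrin, a Frizzled ligand outside the WNT family, was the other gene assigned, at 32.1 CPM and 4.81 times (4.07 to 5.71) the stromal level. In ending 1 granulosa-like cells were highest too, but at 1.805 times (0.858 to 4.24) the surface epithelium level, an interval that includes no difference. In ending 2 NDP there was 8.66 times (7.28 to 10.35) the stromal level. In stroma-like cells FRZB, a secreted Frizzled-related inhibitor, was at 90.5 CPM, the transcription factor TCF7L1 at 21.0 CPM and the inhibitor DKK2 at 1.23 CPM. The first pair was highest in stroma in both endings, whereas DKK2 in ending 2 was highest in granulosa-like cells. Germ cell-like cells were assigned RSPO2, at 7.81 CPM, with 33.2 CPM in oogenesis cells and 0.651 CPM or less in every other named stage, so each of 3 R-spondins had its highest level in a different class, although in ending 1 RSPO2 was highest in the surface epithelium. The feedback inhibitor NKD1 reached 13.5 CPM in these cells, highest in both endings. The APC paralog APC2 (2.47 CPM) and NOTUM, an enzyme that inactivates WNT proteins (1.36 CPM), were highest there in the pool but not in ending 1. WNT1 and WNT7A were assigned to germ cells on 29 and 27 UMIs over the 4 classes, with an interval for WNT1 of 0.874 to 10.4 that includes no difference.

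Of the other paralogs, WNT3 (3.67 CPM in its highest class, the surface epithelium), WNT9A (6.47 CPM, surface epithelium), WNT5B (8.13 CPM, granulosa), WNT11 (1.91 CPM, stroma) and WNT16 (0.870 CPM, germ cells) were assigned to no class. For each of these genes the interval of the highest over the next class included no difference, and WNT5B was highest in stroma-like cells in ending 1. AXIN1, the paralog of AXIN2, was highest in germ cell-like cells at 36.8 CPM against 27.6 CPM in granulosa-like cells, a ratio of 1.33 (1.22 to 1.46). AXIN1 and AXIN2 thus differed in their highest class.

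The genes most like each of the 9 in pattern were sought over 29 groups of cells, the clusters split by ending with at least 50 cells, by Pearson's r of log2(CPM + 10) among 12939 genes. These points share libraries and differ in depth, so r is a description. RSPO1 was most like NDNF (r = 0.92), FYB2 and SCN1A, and RSPO3 most like AGTR2 (r = 0.97), ASPN and GPC3. WNT4 was most like FNDC1 (r = 0.97), OLFML3 and C1QTNF2, WNT6 most like ENSMFAG00000032810 (r = 0.91), ME1 and ENSMFAG00000030761, and WNT2B like MYRF (r = 0.88) and MSLN, the latter a marker used to name the surface epithelium. ZNRF3 was most like KIAA1522 (r = 0.92), DENND4C and ETNK2, AXIN2 most like ZFP62 (r = 0.86), MPDZ and PCDHAC2, and SOST most like HS3ST3A1 (r = 0.89), SLC25A29 and PPP1R1B. LGR5 has too few UMIs for this. Within the set the closest pairs were RSPO3 with WNT4 (r = 0.86), RSPO1 with WNT2B (r = 0.81), RSPO1 with ZNRF3 (r = 0.78) and WNT6 with ZNRF3 (r = 0.78), and AXIN2 followed ZNRF3 (r = 0.76) and RSPO1 (r = 0.74).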

How the data were processed

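A deposited table holds the counts (whole UMIs, not normalized) of both libraries. For it the authors used Cell Ranger 3.0.2, as the submitters' processing notes name it, with the Macaca_fascicularis_5.0 genome, and then Seurat. The upper limit of 3000 genes per cell that the methods state is not applied in the table: 4675 cells exceed it and hold 64.2% of UMIs. All cells were used here, and cells hold between 499 and 120898 UMIs. Raw counts of cells were summed per class, and those sums carry the intervals given.

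Clusters were made with Seurat 5.3.0 (R 4.3.3, Matrix 1.6.5) from 2000 variable genes without the pathway list, 18 components, 20 neighbours and resolution 0.6. A name needed 3 markers, each present in 5% of cells or more and 1.5 times higher there than elsewhere, with 10 CPM added to both sides. It was withheld on ties, where leading genes belonged to another list, or at a median depth below that of all cells divided by 3 with no leading marker. Scrublet (scanpy 1.11.5) called 0 cells, so doublets stayed in, and removing the top 8% of scores is an alternative. The named genes are the set, its paralogs with at least 20 UMIs, the 3 other assigned list genes with the highest CPM per class and, for each gene with 200 UMIs or more, the 3 most similar genes, of which 1 is not reported here.

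Members, lists and markers were chosen with earlier results of these data known. Intervals were tested on class sums simulated with Poisson error alone. Those sums hold no differences between cells or clusters of a class, so their effect on the intervals was not tested. Thinning was checked on measured counts. Genes under an Ensembl identifier alone (3213 of 18446) were not given other names. WNT3A, WNT9B, FZD1, LRP5, RNF43, APC and GSK3A of the list were not analysed here. Python 3.11.15, numpy 2.4.6, scipy 1.17.1, pandas 2.3.3 and matplotlib 3.10.9 were used.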

Additional observations from a re-analysis of the deposited data

How the results depend on the processing

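Over 11 alternative settings 6 or 7 of the 9 genes were assigned to a class (7 as reported) and 15 to 23 of the other pathway genes (21 as reported). No highest class changed for any of the 9 except LGR5, when cells were thinned to 1000 UMIs and in barcodes ending in 2 alone. RSPO1, RSPO3, WNT4, WNT6 and WNT2B kept their assignment in 11 of 11. AXIN2 lost it with 200 to 3000 genes per cell, at resolution 1.0, with pathway genes kept among the variable genes, when thinned, and in ending 1 alone, with log2 ratios from 0.87 to 1.37 over all settings. SOST lost it in ending 2 alone, where the ratio to germ cell-like cells, the next class there, was 0.34 on the log2 scale. Most germ cell SOST UMIs of ending 2 came from cells without a stage name. The median log2 ratio over the 9 genes, 2.44 as reported, was 2.28 with the mean of single-cell CPM, 2.04 with the unnamed clusters 8 and 10 added to granulosa-like cells, and 2.19 and 2.61 in barcodes ending in 1 and in 2 alone. The cause of these shifts was not tested. After thinning, surface epithelium-like cells had no LGR5 UMI, and LGR5 entered the median (2.43) as the lowest value.

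The alternatives by ending, with clusters 8 and 10 added, and with germ cells of named stages only were chosen after seeing the data. Removing cells over 10% mitochondrial UMIs gave no value, since no cluster then met the rule for surface epithelium. No paired analysis was possible because each stage has 1 library and cells are not tied to it. Depth limits LGR5 most, with 71 UMIs in all.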

Other observations

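Classes outside the 4 compared held some of these genes too. Pericyte-like cells (138 cells, led by ACTA2, TINAGL1 and PLAAT2) held WNT6 at 40.6 CPM (27.4 to 58.0), AXIN2 at 29.8 CPM (18.7 to 45.1) and WNT4 at 17.6 CPM (9.37 to 30.1), on 30, 22 and 13 UMIs. LGR6, an R-spondin receptor with less than 1 CPM in each of the 4 classes, was at 12.2 CPM in pericyte-like cells. Only 5.80% of these 138 cells had an LGR6 UMI, so that value rests on few molecules. Endothelial-like cells (546 cells) held ZNRF3 at 25.1 CPM (21.1 to 29.7), AXIN2 at 19.2 CPM (15.7 to 23.3) and WNT4 at 7.03 CPM (4.97 to 9.64), above the erythroid-like level of each.

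The unnamed clusters 8 and 10, nearly all of ending 2, differed from each other. Cluster 8 held SOST at 125 CPM and RSPO1 at 27.6 CPM, and cluster 10 held them at 11.6 and 4.68 CPM. WNT6 had the reverse order, 71.8 CPM in cluster 8 and 134 CPM in cluster 10. No WNT4 UMI was counted in cluster 10, and WNT2B was at 17.6 and 24.5 CPM. In both clusters together LGR4 was at 112.5 CPM and WIF1 at 138 CPM, and by fold over all other cells WIF1 ranked 4 in cluster 8 and SFRP4 ranked 9 in cluster 10.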
